A study of Mus musculus with 16 samples.

Results

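The genes described here are p53 targets and genes of the DNA damage response, chosen by name from the gene names printed in the scanner files. All 33 genes of the list were on the array, with 43 probes, out of 34607 genes in all. Of these, 28 had a probe bright enough to be tested. RNA came from the hypothalamus of 16 mice, with 1 mouse on each 1-colour Agilent array. The 8 KO chimeras were C57BL/6J hosts irradiated with 950 Rad and then given marrow of Adrb1tm1BkkAdrb2tm1Bkk/J donors, which lack the beta-1 and beta-2 adrenergic receptors, by 1 injection behind the eye. Tissue was taken 2 to 3 months later. The labels give a ratio of 1 to 4 for donor strain to C57BL/6J without saying what it counts, and whether KO chimeras shared donors was not tested. For the 8 control mice the labels repeat the dose of 950 Rad, the 2 to 3 months and the ratio of 1 to 4. Their strain field also reads irradiated C57BL/6J, while their source reads control mouse and names no marrow donor. The labels thus do not settle if controls underwent irradiation or a marrow transfer of their own. The hosts' own brain cells carried both receptor genes intact.

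p53 is a transcription factor that is normally kept scarce by Mdm2, which marks it for destruction. DNA breaks activate the kinases ATM, ATR and DNA-PK and, through them, the checkpoint kinases Chek1 and Chek2. p53 then accumulates and switches on genes that stop the cell cycle, repair DNA or start cell death, and Mdm2 itself, which ends the response. In brain, irradiation is known to trigger this response most strongly in dividing precursor cells.

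Values are log2 signal relative to the 75th percentile of the same array, and each difference is KO chimera minus control on that scale. Between 27276 (KO chimera replicate 1) and 43248 (control replicate 8) of 59305 spots per array exceeded background clearly by the scanner's own test. Precision is limited by how many arrays there were. On this scale the difference depended on how bright a gene was. Its median was 0.12 over the 4767 genes with a mean level under −3 and −0.07 over the 3692 genes above 3. Over 10805 probes that were well above background on 0 arrays it was 0.40, and with quantile normalization it was 0.03 over the same probes. A member's difference is therefore read here beside the median of genes in the same band of brightness.

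Of the 28 members tested, 1 passed the threshold (limma, Benjamini-Hochberg adjusted p under 0.05 over 24363 genes). It was the p53 target Zmat3, which was lower in KO chimeras. Of all genes tested, 2.77% were called lower, 1.03% higher and 3.8% in either direction, so 1 call among 28 members is near the background. With the array median in place of the 75th percentile the split of calls over all genes moved from 27.0% to 4.19% higher, and with no filter on dim probes it was 40.7% higher. At an unadjusted p under 0.05, 5 members were lower (Zmat3, Aen, Plk2, Ccng1 and Parp1) and 1 was higher (Xpc), 6 of 28 in all. Over all genes the shares at that level were 20.7% in either direction, 12.1% lower and 8.54% higher. The groups of mice did not overlap in 0 of the 28 members, beside 0.965% of all genes (0.85% lower and 0.115% higher in KO chimeras). The median difference over the 28 members was −0.01, beside 0.00 over all genes, and 13 members had a positive and 15 a negative difference. The 95% interval lay within 0.5 of 0 on either side for 27 of the 28 members, all but Trp53.

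**Figure D1:**
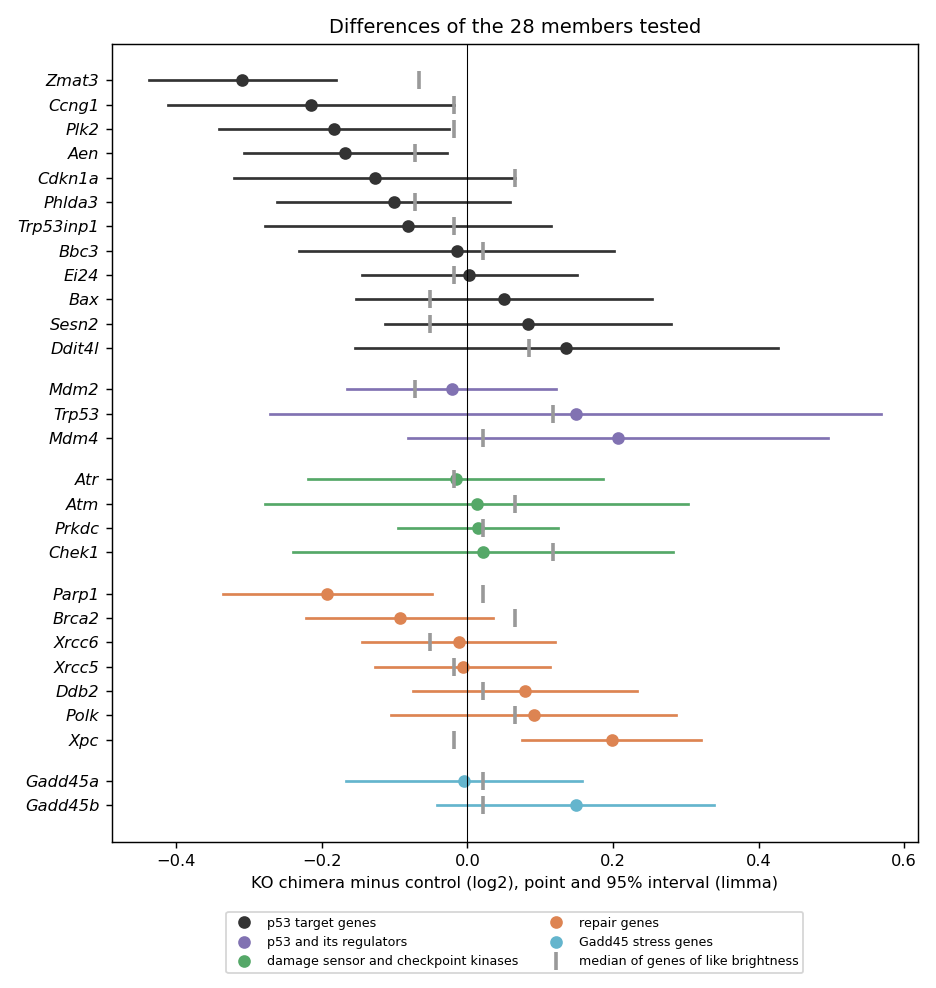
Difference between KO chimera and control for each of the 28 members tested (horizontal axis, log2, 8 mice per group). Points are estimates with their 95% limma intervals, coloured by role, and grey ticks mark the median difference of all tested genes in the same band of brightness. Only the interval of Zmat3 (−0.44 to −0.18) belongs to a member past adjusted p 0.05; the interval of Trp53 is the widest.

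Among the 14 p53 target genes, 12 were tested, of which 1 fell, 0 rose and 11 did not pass. Their median difference was −0.09, with 8 negative and 4 positive values between −0.31 (Zmat3) and 0.14 (Ddit4l). That median depends on how roles were assigned. Mdm2 (−0.02) and Gadd45a (−0.00) are p53 targets too but were counted under other roles. Markers of several other sources had mostly negative differences in the same mice, and markers of others mostly positive ones. Of 13 thalamus markers 12 had a negative difference (2 called, median −0.67), and of 13 oligodendrocyte markers 11 had one (4 called, median −0.25). The summed thalamus level ran from 5.60 to 7.33 in control and 5.23 to 6.12 in KO chimeras, and the summed oligodendrocyte level from 7.92 to 8.50 and 7.55 to 8.42 (log2). Of 12 microglia markers 11 had a negative difference (3 called, median −0.22), of 8 neuronal genes 7 (1 called, median −0.20), and so did all 6 tested red blood cell genes (1 called, median −0.39) and all 12 genes induced by glucocorticoids (7 called, median −0.33). Their summed levels in control and KO chimeras ran from 7.28 to 7.78 and 7.38 to 7.80 for microglia, and from 8.27 to 8.60 and 8.14 to 8.39 for neurons. They ran from 4.86 to 5.55 and 4.39 to 5.08 for red blood cells, and from 8.05 to 8.57 and 7.92 to 8.29 for glucocorticoid-induced genes. All 8 ependyma and tanycyte markers had a positive difference (median 0.51), as did 6 of 8 endothelial genes (median 0.09). So did 8 of 12 hypothalamic neuron markers (median 0.09) and 4 of 6 tested genes of dividing cells (median 0.11). No gene of these positive lists was called. Of the dividing-cell genes, 1 was higher and 2 were lower at an unadjusted p under 0.05 in limma. Their summed level ran from 2.66 to 2.93 in control and 2.37 to 2.87 in KO chimeras. Of the positive ones, Mki67, Cdk1 and Ccna2 had mean levels under −2. Over all genes with a mean level under −3 the median was 0.12, and from −3 to −2 it was 0.09. Over all genes with a mean level above 3 the median was −0.07, with 5.63% called lower and 0.271% higher. The part of all these lists in the differences of the members was not tested. In whole tissue, fewer cells of a type and less RNA per cell cannot be told apart.

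Zmat3 encodes a zinc finger protein that binds RNA and is switched on by p53. It was read by 1 probe, at chr3:32233831-32233890 (mm9, minus strand), well above background on all 16 arrays. The first 30 bases of this probe are shown because it carries the only call among the members, and no base is in capitals.

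Zmat3 probe: tccttcagcctaataaatacagaagtctga

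In control mice Zmat3 measured 2.45 at the lowest, 2.56 at the median and 2.77 at the highest. In KO chimeras it measured 2.10, 2.27 and 2.52. KO chimera replicate 3, at 2.52, was the only KO chimera above the lowest control mouse, so the groups overlapped by that animal. The means were 2.59 ± 0.10 and 2.28 ± 0.12 (SD, n = 8 each). In log2 terms Zmat3 fell by 0.31 ± 0.06 (SE; adjusted p = 0.0160 in limma), so its signal fell by 19.3%. All 8 KO chimeras lay below the control median. Under the exact permutation test, with 12870 ways to assign the mice, p was 0.000311 (two-sided, unadjusted). Genes in the same band of brightness had a median difference of −0.07, and 5.27% of them were called lower. With quantile normalization the difference was −0.25. With normexp background correction, whose added offset of 50 shrinks differences of dim probes by construction, and then quantile normalization it was −0.22. It was −0.23, −0.23, −0.45, −0.46 and −0.37 within slides 1, 3, 4, 5 and 6, of which slides 4 and 5 held 1 mouse per group. It was −0.41 and −0.21 within the 2 scan days, where with 4 mice per group limma gave adjusted p = 0.336 and 0.316. Without KO chimera replicate 1, the array with the fewest spots above background, it was −0.28 (limma adjusted p = 0.0227).

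The next 3 targets by p-value were also lower without passing. Aen, a nuclease that takes part in cell death after damage, had a control median of 3.42 (range 3.25 to 3.61) and a KO chimera median of 3.24 (3.09 to 3.45). Its difference was −0.17 ± 0.07 (SE; limma adjusted p = 0.157), and 7 of 8 KO chimeras lay below the control median. Genes as bright as Aen had a median difference of −0.07, and with quantile normalization Aen measured −0.10. A second Aen probe that overlaps the first measured −0.18 (limma adjusted p = 0.122 over every probe). Plk2, a kinase of the polo family that neurons also induce with activity, had medians of 0.06 (−0.11 to 0.34) in control and −0.10 (−0.31 to 0.07) in KO chimeras. The difference was −0.18 ± 0.07 (limma adjusted p = 0.175), −0.32 on the first scan day and −0.04 on the second. Ccng1, which encodes cyclin G1, had medians of 0.77 (0.50 to 1.04) and 0.61 (0.34 to 0.84), with a difference of −0.21 ± 0.09 (limma adjusted p = 0.199). Within slides 5 and 4 it measured −0.71 and −0.47, and within slides 3 and 6 it measured 0.02 and 0.04. The groups overlapped in all 3 genes. In each, the unadjusted exact permutation p was under the threshold (0.0152, 0.0214 and 0.0389).

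**Figure D2:**
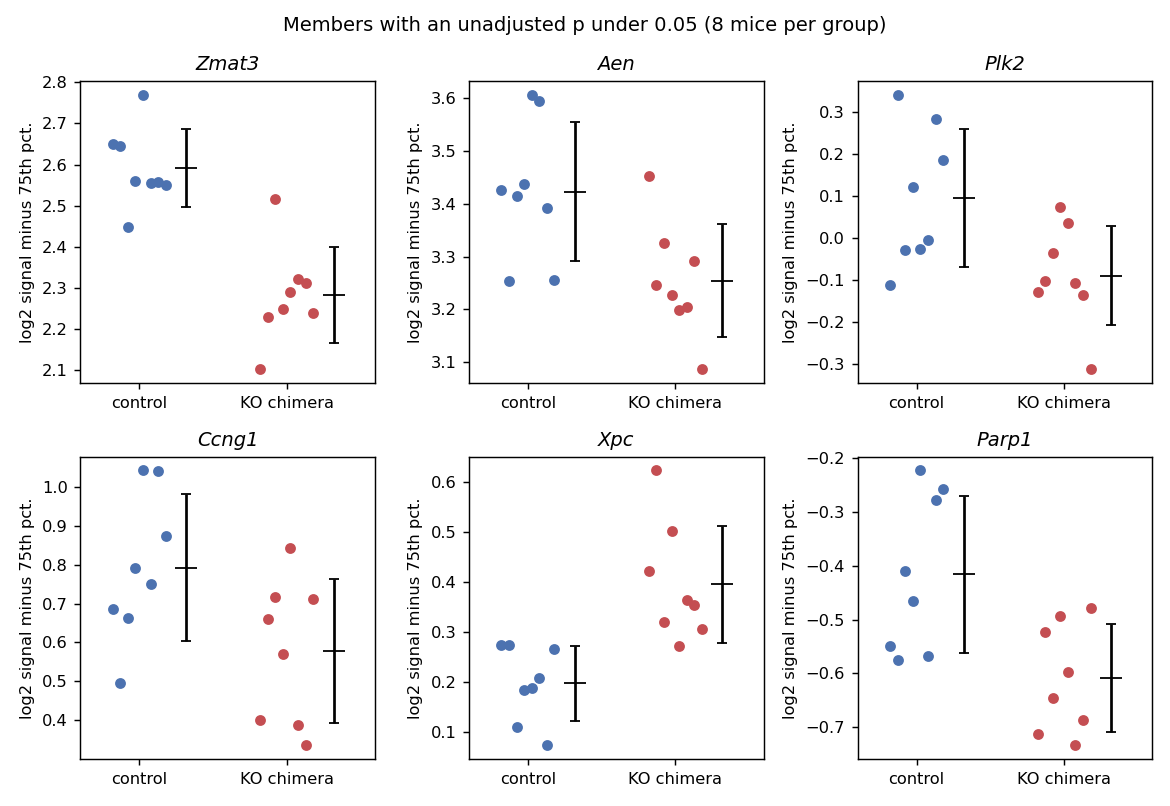
Log2 level on each array, with its 75th percentile set to 0, for the 6 members with an unadjusted p under 0.05, 1 point per mouse, with the mean and SD of 8 mice beside each group in black. Axes differ between panels and do not start at 0. In Zmat3 1 KO chimera reaches into the control range (2.45 to 2.77), and in Xpc the lowest KO chimera (0.27) meets the highest control mice.

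Cdkn1a encodes p21, the inhibitor of cyclin-dependent kinases through which p53 halts the cell cycle, and is the target most often used to read p53 activity. RefSeq gives Cdkn1a 2 start sites in GRCm38.p6. The window before the upstream start holds 2 exact matches to the p53 response decamer, the first at −73, separated by 12 bases. The search used the published consensus, which reads the same on both strands, and allowed no mismatch. The stretch directly after the second decamer departs from the consensus at its first base alone, so it is not in capitals. Which of these stretches p53 binds was not tested. The window is shown because it was the only member window, of 36 for 28 genes, with 2 decamers at most 13 bases apart. Of all 32851 windows of that length 24 hold such a pair, or 0.0731%. The 250 bases before that start follow, with the decamers in capitals (chr17:29090729-29090978, plus strand, GRCm38.p6).

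Cdkn1a upstream start: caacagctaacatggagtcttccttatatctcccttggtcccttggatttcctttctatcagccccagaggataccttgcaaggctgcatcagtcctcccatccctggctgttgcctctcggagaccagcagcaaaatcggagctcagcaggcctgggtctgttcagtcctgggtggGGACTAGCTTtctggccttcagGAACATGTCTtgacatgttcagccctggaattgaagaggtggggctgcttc

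The brightest Cdkn1a probe, listed in the files for transcript variants 1 and 2, measured −1.69 at the lowest, −1.51 at the median and −1.18 at the highest in control mice. In KO chimeras it measured −1.77, −1.65 and −1.36. The groups overlapped almost wholly. The difference was −0.13 ± 0.09 (SE; limma adjusted p = 0.447), with a 95% interval of −0.32 to 0.07. A rise of Cdkn1a by more than 0.07 on the log2 scale thus lay outside the interval, while genes of like brightness had a median of 0.07. A second probe, listed for variant 2 without variant 1 and placed upstream at chr17:29227986-29228045 (mm9), was well above background on 2 control and 3 KO chimera arrays. It measured −5.51 ± 0.88 in control and −4.54 ± 0.51 in KO chimeras (SD, n = 8 each), near background, where most probes were higher in KO chimeras. Its difference was 0.96, 0.63 with quantile normalization and 0.10 with normexp plus quantile, and it was not tested. All probes well above background on 1 to 7 arrays had medians of 0.41, 0.03 and 0.01 on the same scales. The third probe was above background on 1 array.

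A single p53 decamer stood in other member windows. Decamers were found for 10 of the 28 members with a window, 6 of 12 targets among them, and in 30.6% of member windows beside 8.36% of all windows. The 2 Aen windows overlap and hold the same decamer, which thus counts in both. The share of genes with a decamer was not counted over all genes. The targets with one were Cdkn1a, Ccng1, Aen, Bax, Ddit4l and Ei24. A match is a description of the letters and not a site. Segments of 50 bases from 5 of these genes are given to show the decamer in capitals, since they include 2 of the targets with the lowest p and the p53 inhibitor Mdm2. The windows read here held none for Zmat3, Trp53inp1, Xpc, Ddb2 and Prkdc, so no decamer was sought for these genes.

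Ccng1, chr11:40755442-40755491, minus strand: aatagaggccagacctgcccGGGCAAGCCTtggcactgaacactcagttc
Aen, chr7:78895917-78895966, plus strand: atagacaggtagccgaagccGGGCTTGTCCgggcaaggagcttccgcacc
Bax, chr7:45467070-45467119, minus strand: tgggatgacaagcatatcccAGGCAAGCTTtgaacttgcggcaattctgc
Ddit4l, chr3:137623562-137623611, plus strand: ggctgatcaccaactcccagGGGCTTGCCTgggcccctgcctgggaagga
Mdm2, chr10:117710915-117710964, minus strand: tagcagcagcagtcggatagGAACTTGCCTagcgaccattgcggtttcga

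Members with a decamer did not share a direction. Of the targets, Ccng1, Aen and Cdkn1a measured −0.21, −0.17 and −0.13, Ei24 measured 0.00, and Bax and Ddit4l measured 0.05 and 0.14. Of the other members with a decamer, Mdm2 measured −0.02, Gadd45a −0.00, Polk 0.09 and Trp53 0.15. Bax, which permeabilises mitochondria in apoptosis, had medians of 1.92 (1.77 to 2.31) in control and 2.08 (1.66 to 2.19) in KO chimeras. Bbc3, which encodes the death protein PUMA, had a difference of −0.01, with a 95% interval of −0.23 to 0.20. The other tested targets were Phlda3 (an inhibitor of AKT), Trp53inp1 (a cofactor of p53 in stress), Sesn2 (a sestrin that restrains mTOR), Ei24 and Ddit4l (a relative of the mTOR inhibitor REDD1). Their differences lay between −0.10 for Phlda3 and 0.14 for Ddit4l (limma adjusted p between 0.470 and 0.987). The highest upper bound of a 95% interval among the targets was 0.43, for Ddit4l. Sesn2 was highest in KO chimera replicate 1, at 1.93 against 1.46 for the next KO chimera.

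Gdf15 and Eda2r were not bright enough to be tested. Gdf15, a secreted stress hormone, was well above background on 3 control and 4 KO chimera arrays and measured −4.95 ± 0.74 and −5.03 ± 0.64 (SD, n = 8 each). Eda2r, a receptor of the tumour necrosis factor family, was well above background on 0 arrays with either probe, so only an upper bound on its level was measured and no fold is given.

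p53 itself and its regulators did not pass in any of the 3 genes tested, and their median difference was 0.15. That median was 0.05 with quantile normalization and with normexp plus quantile, 0.05 with the deposited table, 0.02 with the array median as the scale, and −0.04 on the first scan day alone. Trp53 was dim. It was well above background on 8 control and 6 KO chimera arrays and measured −4.17 at the lowest, −3.84 at the median and −3.13 at the highest in control mice. In KO chimeras it measured −4.73, −3.42 and −3.13. The groups overlapped fully, and 7 of 8 KO chimeras lay above the control median. KO chimera replicate 2 stood alone at the low end and was not well above background. The difference of 0.15 ± 0.20 (SE; limma adjusted p = 0.710) was close to the median of 0.12 for genes as dim, and was −0.00 with quantile normalization. Its 95% interval, −0.27 to 0.57, was the widest of all members. On the first scan day alone the Trp53 difference was −0.13, and on the second 0.43. Mdm2, the ubiquitin ligase that is both inhibitor and target of p53, was bright. Its control values ran from 2.87 through a median of 3.06 to 3.20, and its KO chimera values from 2.83 through 3.00 to 3.29. The difference was −0.02 ± 0.07 (limma adjusted p = 0.884; 95% interval −0.17 to 0.12), and its sign turned to 0.05 with quantile normalization and with normexp plus quantile.

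**Figure D3:**
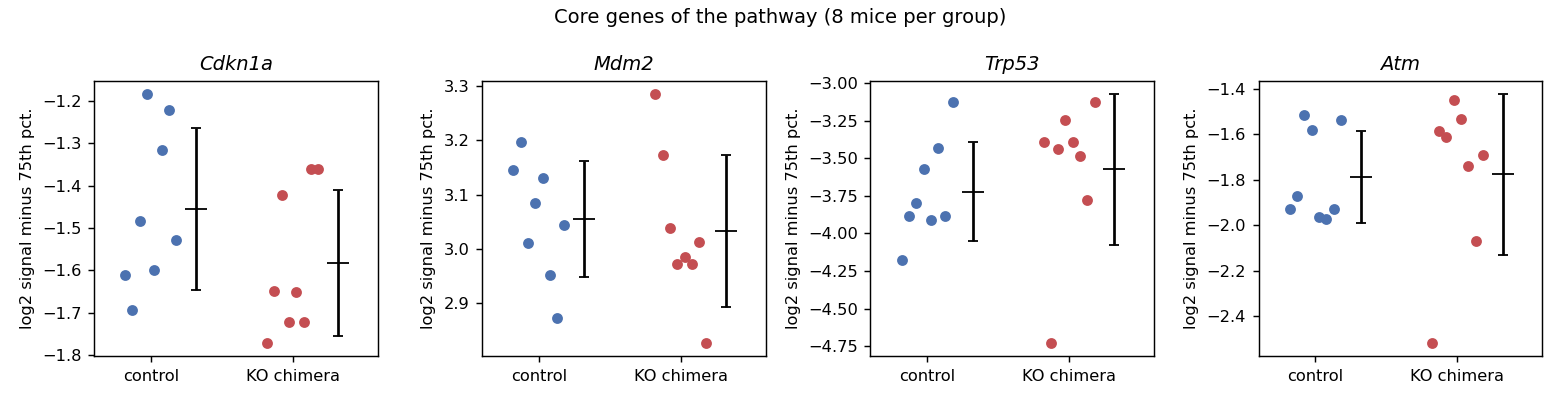
Log2 level on each array, with its 75th percentile set to 0, of Cdkn1a, Mdm2, Trp53 and Atm, 1 point per mouse, with the mean and SD of 8 mice beside each group in black. Axes differ between panels and do not start at 0. Control and KO chimera values overlap in all 4 genes, and 1 KO chimera lies apart at −4.73 in Trp53.

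Mdm4, a relative of Mdm2 that masks the activating part of p53, had 2 probes. The brighter had medians of −0.88 in control and −0.78 in KO chimeras, whose highest value was 0.02, a difference of 0.21 ± 0.14 (limma adjusted p = 0.408). The value of 0.02 belonged to KO chimera replicate 1, the array with the fewest spots above background, and without it the difference in Mdm4 was 0.11 (limma adjusted p = 0.619). The dimmer one measured 0.42 ± 0.16 (limma adjusted p = 0.163 over every probe), 0.31 with quantile normalization and 0.20 with normexp plus quantile. Cdkn2a, the locus of the cell cycle inhibitor p16 and of ARF, which frees p53 from Mdm2, was not tested. Its brighter probe was well above background on 4 control and 3 KO chimera arrays and its other probe on 0 arrays.

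Of the 5 damage sensor and checkpoint kinases 4 were tested on their brightest probe, 0 passed, and the median difference was 0.01, with values from −0.02 to 0.02; with quantile normalization they ran from −0.12 (Chek1) to 0.01 (Atr). Prkdc, the catalytic subunit of DNA-PK, which acts in end joining, was measured most tightly. Its control values ran from −0.86 through −0.80 to −0.63 and its KO chimera values from −0.89 through −0.74 to −0.67. The difference was 0.01 ± 0.05 (SE; limma adjusted p = 0.902), with a 95% interval of −0.10 to 0.12. Atr, the kinase that answers stalled replication, gave −0.02 on its brighter probe (95% interval −0.22 to 0.19) and −0.10 on the other. Chek1, the kinase it activates, gave 0.02 (−0.24 to 0.28). Chek2, the kinase downstream of ATM, was well above background on 1 control and 3 KO chimera arrays and was not tested. Its level near background was higher in KO chimeras by 1.12, by 0.67 with quantile normalization and by 0.10 with normexp plus quantile. Probes well above background on 1 to 7 arrays had medians of 0.41, 0.03 and 0.01 on the same scales.

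Atm, the kinase that answers double-strand breaks, was read by 2 probes, and neither passed. They are shown because their estimates lay apart: the whole of the upstream probe and the first 30 bases of the downstream one, with no base in capitals.

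Atm upstream probe, chr9:53256167-53256226, minus strand, mm9: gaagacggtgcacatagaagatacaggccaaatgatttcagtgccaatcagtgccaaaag
Atm downstream probe, chr9:53245871-53245930, minus strand, mm9: ttgaaaggtgaaaaagactgagttagaaaa

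The downstream probe was the brighter. It measured −1.97 at the lowest, −1.90 at the median and −1.52 at the highest in control mice, and −2.52, −1.65 and −1.45 in KO chimeras. Its difference was 0.01 ± 0.14 (SE; limma adjusted p = 0.968), and it was −0.98 within slide 4, which held KO chimera replicate 1, and between −0.11 and 0.27 within the other slides. The upstream probe measured −3.36, −3.11 and −2.68 in control and −2.95, −2.78 and −2.72 in KO chimeras. Of the 8 control mice, 6 lay below every KO chimera. Its difference was 0.30 ± 0.08 (limma adjusted p over all probes = 0.0605), 0.17 with quantile normalization and 0.07 with normexp plus quantile. The difference between the probes was not tested.

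Among the 35144 probes tested one by one, 2.58% were called, and of the 34 member probes tested 1 was called (Zmat3). With the slide as a block 0.714% of all probes were called, and Zmat3 was again the 1 member. Trp53inp1 and Polk also had 2 probes above the filter. In Trp53inp1 they gave −0.08 and 0.14, and in Polk 0.09 and 0.30, the second in each being the dimmer. In 4 of the 6 genes with 2 such probes the dimmer one was the higher, and with normexp plus quantile the gap between probes was smaller in each of those 4. The offset of 50 in normexp shrinks differences of dim probes by construction, so no conclusion is drawn from the smaller gap.

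**Figure D4:**
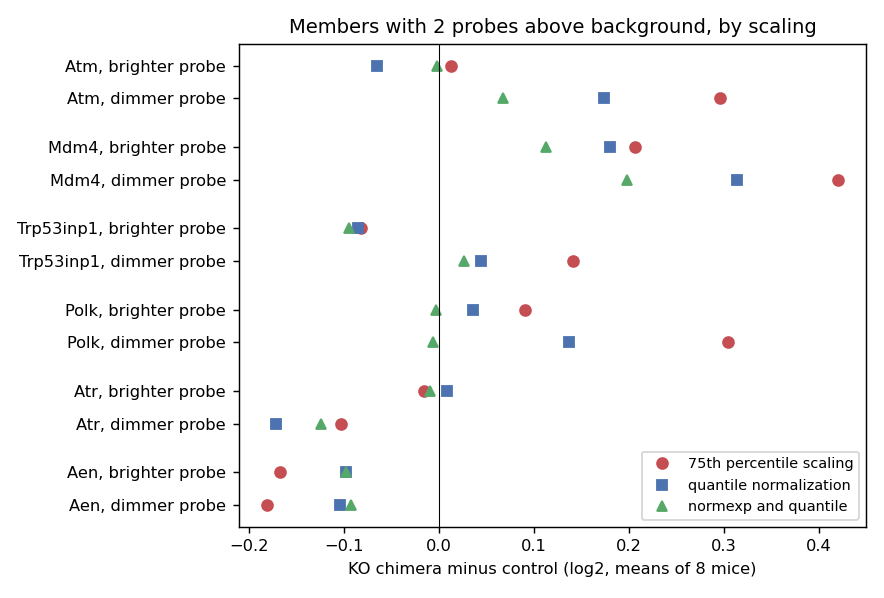
Difference between KO chimera and control (horizontal axis, log2, means of 8 mice) for both probes of the 6 members that had 2 tested probes, under 3 scalings of the same arrays. The dimmer probes of Atm, Mdm4, Trp53inp1 and Polk lie at 0.30, 0.42, 0.14 and 0.30 with 75th percentile scaling and closer to 0 with normexp plus quantile, while both Aen probes lie below 0 throughout. The offset of 50 in normexp shrinks differences of dim probes by construction.

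The repair genes had differences of both signs. Of 8 genes 7 were tested, 0 passed, and the median difference was −0.01. Xpc, which recognises distorted DNA at the start of nucleotide excision repair, was the nearest to a call. Its control values were 0.07 at the lowest, 0.20 at the median and 0.27 at the highest, and its KO chimera values 0.27, 0.36 and 0.62. The groups met at 0.27, where the lowest KO chimera lay just under the highest 2 control mice. The means were 0.20 ± 0.08 and 0.40 ± 0.12 (SD, n = 8 each), a difference of 0.20 ± 0.06 (SE; limma adjusted p = 0.0640). All 8 KO chimeras lay above the control median, and the exact permutation test gave p = 0.000466 (two-sided, unadjusted). It was 0.22 with quantile normalization, 0.21 with normexp plus quantile and 0.07 with the array median as the scale, and positive within all 5 slides that held both groups (0.07 to 0.24). Xpc passed where only probes above background on all 16 arrays were tested (limma adjusted p = 0.0456). Of the 18343 genes in that fit, 1.63% were called higher and 5.16% lower, and why Xpc passed there was not tested. Genes of like brightness had a median of −0.02.

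Parp1, the polymerase that marks strand breaks with poly(ADP-ribose), had a negative difference. It showed medians of −0.44 (−0.58 to −0.22) in control and −0.62 (−0.73 to −0.48) in KO chimeras, and all 8 KO chimeras lay below the control median. The difference was −0.19 ± 0.07 (SE; limma adjusted p = 0.117), −0.21 with quantile normalization and −0.14 with normexp plus quantile. Within slide 6, with 2 mice per group, it was 0.02. Ddb2, which hands ultraviolet lesions to Xpc, measured 0.08 (95% interval −0.07 to 0.23). Brca2, which acts in repair by homologous recombination, measured −0.09 (−0.22 to 0.04). Polk, a polymerase that copies past lesions, measured 0.09 on its brighter probe. Xrcc5 and Xrcc6, the Ku80 and Ku70 proteins that hold broken ends, measured −0.01 and −0.01, with intervals of −0.13 to 0.11 and −0.14 to 0.12. The signs of Polk, Xrcc5, Xrcc6 and Ddb2 (−0.05 with the array median as the scale) depended on the setting. Brca1 was well above background on 0 arrays and was not tested.

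The 2 Gadd45 genes, which respond to stress and DNA damage, did not pass. Gadd45a, a p53 target, had medians of −0.67 (−0.90 to −0.48) in control and −0.71 (−0.92 to −0.43) in KO chimeras, with a difference of −0.00 ± 0.08 (SE; limma adjusted p = 0.978). Gadd45b, which neurons induce with activity, had medians of −1.05 (−1.43 to −0.74) and −0.89 (−1.18 to −0.73), with a difference of 0.15 ± 0.09 (limma adjusted p = 0.363) that was positive within all 5 slides.

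Wider lists of the same pathway were read in the same way. Of 31 tested further p53 target genes 0 were called by limma (2 higher and 3 lower at an unadjusted p under 0.05), and the median difference was −0.05. The smallest p belonged to Ercc5, a nuclease of excision repair, at 0.21 ± 0.06 (SE; limma adjusted p = 0.0549), Tigar, an enzyme of sugar metabolism, at −0.23 ± 0.07 (0.0809), and the adenylate kinase Ak1 at −0.16 (0.136). Of 26 tested further sensor and checkpoint genes 1 fell, with a median of −0.03. It was Tlk1, a kinase that acts on chromatin assembly and is restrained by checkpoint signals, which went from 1.68 ± 0.08 to 1.41 ± 0.16 (SD, n = 8 each), a fall by 0.27 (limma adjusted p = 0.0406). Tlk1 did not pass with quantile normalization (−0.20, adjusted p = 0.119), with normexp plus quantile (0.0991), with the deposited value table (0.109), with the slide as a fixed block (0.0755), or without any 1 of 11 mice. The mice were control replicates 1, 2, 3, 4, 5 and 7 and KO chimera replicates 2, 4, 5, 7 and 8 (limma adjusted p between 0.0501 and 0.0816). H2ax, the histone marked at breaks, measured −0.20 (0.103), and Trp53bp1, which binds such breaks, 0.15 (0.175). Of 51 tested further repair genes 0 were called by limma (2 higher and 5 lower at an unadjusted p under 0.05), with a median of −0.02; the smallest p was that of Tdp2, which frees trapped topoisomerase from DNA, at −0.21 (0.0815).

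Markers of cells in which a damage response is usually sought were also read. Of 10 genes of dividing cells 6 were tested and 0 were called by limma (1 higher and 2 lower at an unadjusted p under 0.05), with a median of 0.11; Top2a, Ccnb1, Aurkb and Bub1 were too dim. Their summed level ran from 2.66 to 2.93 in control and from 2.37 to 2.87 in KO chimeras (log2). Of 6 oligodendrocyte precursor markers 0 were called by limma (1 higher and 1 lower at an unadjusted p under 0.05), with a median of −0.08. Of 9 T and B lymphocyte markers on the array, 5 were too dim to be tested: Cd3d, Cd3g, Cd8a, Cd79b and Ms4a1. Of the 4 tested, 1 had a positive and 3 a negative difference, with a median of −0.08. By limma 0 were called, and at an unadjusted p under 0.05 1 was lower (Cd4, −0.33) and 0 were higher. All 12 markers of hypothalamic neurons were above background, and 0 were called by limma (1 higher and 0 lower at an unadjusted p under 0.05).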

How the data were processed

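Total RNA of hypothalamus from 8 control mice and 8 KO chimeras was measured on 1-colour Agilent arrays, 1 mouse per array. The authors deposited the scanner's intensity per spot, for which the submitters' processing notes name Agilent Feature Extraction 10.7, with background subtracted and probes placed on mm9 per the file headers. The deposited value table, in log2 units, served as an alternative; how its arrays were aligned is not stated. Each mouse is a separate sample, and p-values measure the spread between mice.

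Control spots and spots marked as outliers were left out, the array's 75th percentile was subtracted from log2 of the processed intensity, and spots of a probe were averaged. A probe was kept where at least 8 of 16 arrays had it well above background (35144 of 55681), and the brightest probe of each gene was tested (24363 genes) by limma 3.58.1 under R 4.3.3 (lmFit, eBayes), Benjamini-Hochberg adjusted over all genes. Intervals are 95% intervals of that fit. Members were found by the name in the files, and other genes through RefSeq accession or symbol. Promoter windows (250 bases before to 50 after a start) came from RefSeq, GRCm38.p6, and matched 28 of 33 members. A list's summed level is log2 of its members' summed linear values.

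The members, lists and rules were chosen with earlier results of these data known. Every member is accounted for; those with an unadjusted p under 0.05 and Cdkn1a, Mdm2, Trp53 and Atm are given in full, and of wider lists the called genes and up to 3 more. The fit was first checked on simulated arrays of 24363 genes in these groups: it called 56.7% of 67 genes given a log2 change of 0.5, 91.0% of 67 given 1, and 98.5% of 66 given 2. It also called 11 of 24163 genes left as they were. The simulated noise was independent between genes and held no effect of slide, scan day or brightness, so these rates may not hold for the real arrays. The smallest change tried, 0.5, was larger than any difference among the tested members (−0.31 to 0.21). Alternatives were other scalings, background correction, filters, probe rules, replicate number, scan day or slide as a block, array weights, each mouse left out, and an exact permutation test; leaving out slide 4 was added after the data were seen. Of the 6 slides, 5 held both groups. Python 3.11.15 with matplotlib 3.10.9 drew the figures.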

Additional observations from a re-analysis of the deposited data

Results flagged for a closer look

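In 4 of the 56 groups of 8 mice tested over the members, 1 mouse lay far from the others; chance alone would mark about 1 group in 20. Sesn2 was 1.93 in KO chimera replicate 1, with the other KO chimeras between 1.25 and 1.46. Mdm4 was 0.019 in the same mouse, with the others at or below −0.52. That array had the fewest spots above background (27276), and its part in these values was not tested. Trp53 was −4.73 in KO chimera replicate 2, with the others between −3.78 and −3.13. Xrcc5 was 0.78 in KO chimera replicate 8, with the others between 0.96 and 1.07.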

How the results depend on the processing

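Zmat3 kept its direction in all 32 other fits (−0.44 to −0.21) and its call in 29; without 1 mouse at a time its limma adjusted p lay between 0.0106 and 0.0354. Members called lower numbered 0 within scan day 1 and within scan day 2, and 0 with the replicate number as a block, where Zmat3 had a limma adjusted p of 0.0508. The numbers were not taken as pairs: 3 of 8 same-numbered pairs had deviations correlated above 0.1, and in these 3 the control mouse correlated best with the KO chimera of its own number, a hint from the data and not the design. The block moved the calls over all genes from 925 to 791. With the array median as the scale, which shifts all genes by −0.13, 6 of 28 members were called lower (Ccng1, Aen, Zmat3, Plk2, Brca2 and Parp1). Of all 24363 genes, 4024 were called lower and 176 higher on that scale. The medians were then −0.22 for targets, −0.11 for sensor kinases, −0.13 for repair genes and −0.055 for Gadd45 genes. Members called higher numbered 1 (Xpc) where each probe had to exceed background on all 16 arrays (1.63% of genes), and 1 at an adjusted p of 0.1 (2.75%). With no spacer allowed, 0 member windows held 2 exact matches to the p53 decamer, and pairs with a mismatch were not counted. Over all genes, 925 calls became 527 with quantile normalization, 487 with normexp plus quantile, 535 with the deposited table, 594 with no filter, 477 with the slide as a fixed and 1279 as a random block, 4200 with the median, 1245 with probes above background on every array, 1233 with a trend and robust variance, 1258 with array weights, 750 with the mean of probes, 967 with the scan day as a block, and 0 and 7 within the scan days. Calls over all genes without control replicate 1, 5 or 7 numbered 539, 361 and 367, and without KO chimera replicate 2, 4, 6 or 7 437, 582, 404 and 602; the cause was not tested. Signal over background limits 5 members that could not be tested (Gdf15, Eda2r, Cdkn2a, Chek2 and Brca1).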

Other observations

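Of the other cell type lists read beside the members, ependyma and tanycyte markers had a positive difference in all 8 genes (0 called, 6 at an unadjusted p under 0.05 in limma; median 0.51). Of 8 astrocyte genes 6 had a negative difference (0 called, 2 lower and 0 higher at an unadjusted p under 0.05 in limma), and of 8 endothelial genes 2 (0 called, 1 higher at that level). Of 9 genes of border and infiltrating macrophages 6 passed the filter. Itgax passed it through 7 control arrays and 1 KO chimera array, so no call is drawn from it.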
